A study of Mus musculus with 12 samples.

Results

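The genes of glycolysis and of the pentose phosphate pathway were examined in cultured plasmablasts (PBs) and splenic plasma cells (PCs) of the mouse. The set was a list of 39 genes given by name: glucose transporters, the enzymes from hexokinase to lactate dehydrogenase, the PFKFB enzymes, lactate transporters, pyruvate dehydrogenase kinases and the enzymes of both arms of the pentose phosphate pathway. A row was taken where its gene name, after removal of a trailing suffix whose meaning is not given in the sources used here, was on the list. All 39 were found among the 24189 genes of the PB tables and the 24732 genes of the PC tables, and 7 of them carried the suffix.

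The study asked which genes depend on the transcription factors Xbp1 and Mist1 in cells that secrete antibody. RNA-seq was available for 5 groups of 2 libraries each. For PBs, B cells from the spleen spent 8 days on fibroblast feeder cells that express BAFF and CD40 ligand, with IL-4 followed by IL-21, and CD138+ CD23- cells were then sorted. The donors of these cultures were *Xbp1* fl/fl mice (control PBs), *Xbp1* fl/fl mice with *Cd23*-Cre (Xbp1-deficient PBs), and *Bhlha15* CreER/CreER mice (CreER PBs). TACI+ CD138+ splenocytes were sorted as PCs on day 7 of the response to NP-KLH, from wildtype mice (control PCs) and from *Bhlha15* fl/fl mice with *Cd23*-Cre (Mist1-deficient PCs). *Bhlha15* encodes Mist1, *Cd23*-Cre deletes floxed alleles in B cells as they mature, and CreER/CreER mice carry a CreER insertion in both copies of *Bhlha15*. The control PCs are wildtype in their labels, whereas the study's sample table gives them as *Bhlha15* fl/fl. The design text of the series swaps the cell type of the control PBs and of the Mist1-deficient PCs, and the groups here follow the sample labels and the methods of the study. The study describes the libraries of a group as independent experiments, for all groups but the CreER PBs, whose p-values measure a spread that may be technical.

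Glycolysis breaks glucose down to pyruvate, which is either reduced to lactate and exported or passed to the mitochondria, where pyruvate dehydrogenase kinases restrain its entry into the citric acid cycle. The pentose phosphate pathway branches off at glucose 6-phosphate: its oxidative arm makes NADPH and ribulose 5-phosphate, and its non-oxidative arm interconverts sugar phosphates and supplies ribose for nucleotides. Activated B cells take up much glucose, and antibody-secreting cells also use glucose to glycosylate antibodies.

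The transcripts named by the genotypes were examined first. *Bhlha15* was at 176 and 159 TPM (a value per gene length that sums to 1000000 in each library) in control PBs, and at 0.210 and 0.551 TPM in CreER PBs. It was at 258 and 242 TPM in control PCs and at 14.4 and 16.6 TPM in Mist1-deficient PCs. *Bhlha15* was also low in Xbp1-deficient PBs, at 3.57 and 2.60 TPM, so that these PBs had little transcript of Mist1. *Xbp1* itself was at 1981 and 2024 TPM in Xbp1-deficient PBs and at 3168 and 3043 TPM in control PBs, a whole-gene value that does not measure the deleted part. Markers of other cells were present: 10 fibroblast genes summed to between 949 and 1846 TPM in the PB libraries and to between 9.40 and 12.4 TPM in the PC libraries. The 14 neutrophil genes found summed to between 489 and 1029 TPM in PCs, to 145 and 144 TPM in Xbp1-deficient PBs and to at most 14.4 TPM in the other PBs. The part of these cells in the values below was not tested. In bulk RNA, fewer cells of a type and less RNA per cell cannot be told apart.

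The 39 genes together made up 0.636% and 0.678% of all TPM in control PBs, and 0.250% and 0.241% in control PCs. The share was 0.838% and 0.660% in Xbp1-deficient PBs, 0.633% and 0.584% in CreER PBs, and 0.226% in each of the Mist1-deficient PC libraries. Thus the PB libraries lay above the PC libraries without overlap. The enzymes from *Gpi1* to *Ldhb* summed to between 3.56 and 4.80 times the enzymes of the pentose phosphate pathway in PBs, and to between 1.18 and 1.34 times in PCs. In PBs, *Pkm*, *Aldoa*, *Ldha* and *Tpi1* had the highest levels, with *Pkm* between 1210.4 and 1925 TPM. In control PCs *Taldo1*, at 375 and 347 TPM, lay above *Pkm*, at 296 and 282 TPM.

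**Figure D1:**
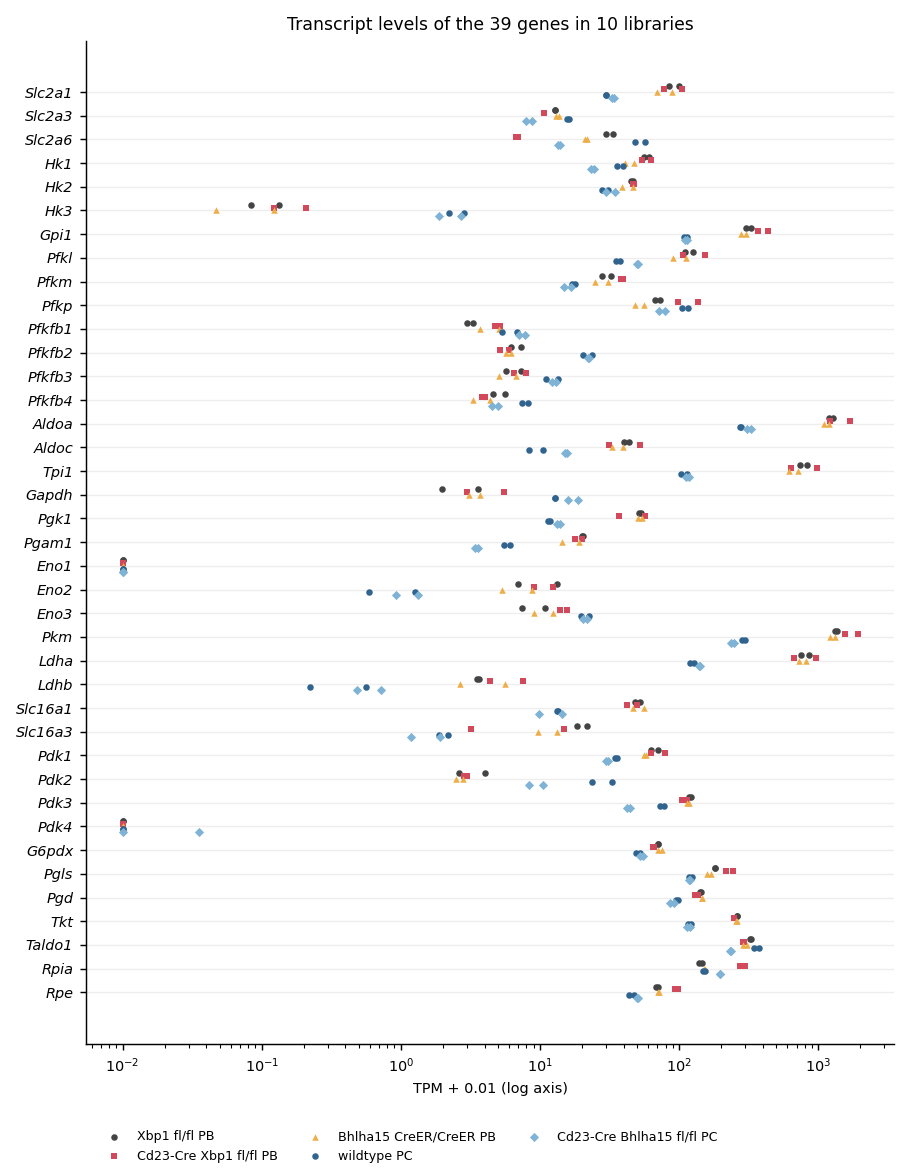
Each point is the level of a gene in a single library, in TPM plus 0.01 on a log axis, with 2 points per group and the groups offset within a row. *Pkm*, *Aldoa*, *Ldha* and *Tpi1* lie furthest right in PBs, and *Eno1* lies at 0 TPM in every library.

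The levels of several members are uncertain, because their transcripts resemble other sequences in the genome. *Eno1*, the common enolase, was listed at 0 TPM in all 10 libraries, and *Gapdh* was at between 1.97 and 18.9 TPM, below *Tpi1*, the enzyme before it, in every library. Of the 50-base stretches of the reference transcript, which is the read length used by the study, 92.9% recurred elsewhere in the genome for *Pgk1*, 91.9% for *Pgam1*, 85.6% for *Gapdh* and 72.2% for *Eno1*. The share was 41.4% for *Pkm*, 33.6% for *Ldhb*, 31.4% for *Gpi1*, 29.1% for *Ldha*, 23.6% for *Tpi1*, 14.8% for *Aldoa* and 13.1% for *Taldo1*. It was at most 7.65% for each of the other 28 members. How the counting treated reads with several matches is not given in the sources used here, and *Gapdh*, *Pgk1*, *Pgam1* and *Eno1* are therefore reported as uncertain. The sums, the ratio to the pentose phosphate enzymes and the ranking of levels above rest on the values as listed and are uncertain too. Recurring stretches were more frequent in several glycolytic members than in the pentose phosphate enzymes.

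Control PCs were compared with control PBs to ask how the pathway differs between PCs in the spleen and PBs in culture. Most glycolytic enzymes of the set had a lower transcript level in PCs. All 4 PFKFB enzymes, *Slc2a6*, *Pfkp*, *Gapdh*, *Eno3*, *Pdk2* and *Hk3* were higher. Of 37 members tested, 24 fell and 10 rose in PCs at an adjusted p under 0.05, beside 38.4% of all tested genes that fell and 37.6% that rose. The median log2 fold change of the members was -0.76, beside 0.01 for all genes. The threshold of the study asks for more than 5 TPM in the higher group, an adjusted p under 0.05 and a change of more than 3-fold, and by it 13 members fell, beside 6.19% of all genes. By the same threshold *Pdk2* and *Gapdh* rose, beside 7.77% of all genes. The level of *Gapdh* is uncertain, as are those of *Pgk1* and *Pgam1*, which are among the 13 that fell. Cell stage, culture or spleen as the source, and control genotype cannot be told apart in this comparison.

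In the middle of glycolysis, *Tpi1*, which interconverts the triose phosphates, fell from 741 and 826 TPM in PBs to 114 and 103 TPM in PCs, a log2 fold change of -2.96 (SE 0.17). *Ldha*, which reduces pyruvate to lactate, fell from 758 and 856 to 119 and 128 TPM. *Pkm*, the pyruvate kinase of most tissues, fell from 1328 and 1371 to 296 and 282 TPM. *Aldoa*, which splits fructose 1,6-bisphosphate, fell from 1195 and 1285 to 275 and 281 TPM. These values of PBs and PCs did not overlap. The exporters of lactate were also lower: *Slc16a3*, known as MCT4, was at 18.5 and 21.8 TPM in PBs and at 1.87 and 2.16 TPM in PCs, a log2 fold change of -3.37 (SE 0.56). *Slc16a1*, known as MCT1, fell from 47.9 and 52.2 to 13.4 and 13.2 TPM. *Slc2a1*, the ubiquitous glucose transporter, fell from 84.6 and 100.01 to 29.6 and 29.9 TPM.

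The pentose phosphate enzymes differed less. The oxidative enzymes *G6pdx*, *Pgls* and *Pgd* fell by 0.57, 0.69 and 0.68 on the log2 scale. *Tkt*, a transketolase of the non-oxidative arm, fell by 1.25 on that scale, from 261 and 262 to 122 and 116 TPM. *Taldo1*, the transaldolase, was at 328 and 323 TPM in PBs and at 375 and 347 TPM in PCs, and its log2 difference of 0.03 had a 95% confidence interval from -0.15 to 0.22. *Rpia*, which makes ribose 5-phosphate, likewise did not pass the test, with a log2 difference of -0.02 and an interval from -0.18 to 0.13.

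Of the 10 members that rose in PCs, 5 were kinases that regulate the flux, namely *Pdk2* and the PFKFB enzymes, and the others were a transporter and enzymes of glycolysis. *Pdk2*, a kinase that inhibits pyruvate dehydrogenase, rose from 2.62 and 4.03 to 33.1 and 23.7 TPM, a log2 fold change of 2.96 (adjusted p = 3.22e-06, SE 0.23). *Pdk1* and *Pdk3*, kinases of the same enzyme, fell by 1.03 and 0.78 on the log2 scale. *Pfkfb2*, which sets the level of the activator fructose 2,6-bisphosphate, rose from 6.19 and 7.33 to 20.4 and 23.7 TPM. *Hk3*, a hexokinase of myeloid cells, was at 0.124 and 0.0734 TPM in PBs and at 2.84 and 2.21 TPM in PCs, where the 14 neutrophil genes tested and 8 of 9 macrophage genes tested also rose. It entered the fit only through the PC libraries, so that its rise was fixed by the filter on low values, as was the fall of *Ldhb* by its level in PBs. The part of these cells in the value of *Hk3* was not tested. Only 9 of the neutrophil genes and 2 of the macrophage genes passed the filter in the PB libraries, so that it fixed the rise of the others.

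**Figure D2:**
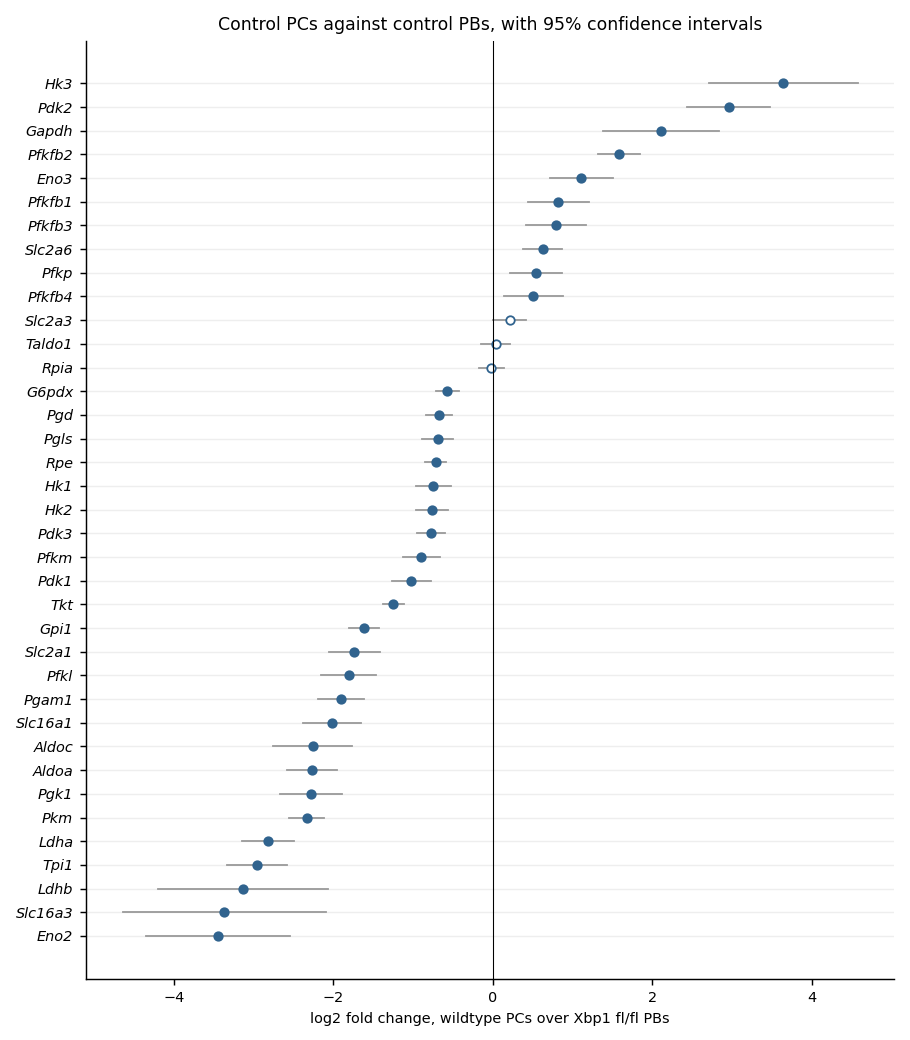
Points give the log2 fold change of control PCs over control PBs for 37 members, with bars for the 95% confidence interval of the limma fit, and filled points passed an adjusted p of 0.05. *Eno2* lies lowest at -3.45 and *Hk3*, which passed the filter only through the PC libraries, highest at 3.64.

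Other gene lists were examined in the same comparison, beside the 37.6% of all tested genes that rose and the 38.4% that fell. Of 9 plasma cell genes 6 rose and 0 fell, and of 8 B cell genes 5 rose and 2 fell. Of 19 tested regulators of these pathways 6 rose and 7 fell. Of 33 tested further genes of hexose, pyruvate and pentose phosphate metabolism 11 rose and 12 fell, with a median log2 fold change of 0.06. All 16 cell cycle genes of a list fell in PCs, with a median log2 fold change of -1.27. Of 15 targets of the hypoxia-inducible factors that are not glycolytic, 10 fell and 1 rose, with a median of -1.83. *Ndrg1*, a stress-responsive gene of this list, fell from 100.1 and 147 to 4.89 and 4.58 TPM, and *Bnip3*, which promotes removal of mitochondria, fell from 50.2 and 60.7 to 1.47 and 2.03 TPM. Of 7 tested Nrf2 targets outside the pentose phosphate pathway, 6 fell. All 8 fibroblast genes tested were lower in PCs, but only 2 of them passed the filter on low values in the PC libraries. The other fibroblast genes, the Nrf2 targets *Srxn1*, *Nqo1* and *Me1*, and *Egln3*, *Car9*, *Arrdc4* and *Ppargc1a* passed through the PB libraries alone. The filter thus fixed their fall. *Tktl1*, *Gpd1* and *Epas1* passed through the PC libraries alone, so that it fixed their rise. The part of feeder RNA in the PB levels was not tested.

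Control and Mist1-deficient PCs were then compared to ask which members depend on Mist1 in PCs. The glucose transporters *Slc2a6* and *Slc2a3*, the kinases *Pdk2* and *Pdk3*, *Hk1*, *Pfkfb4*, *Pfkp*, *Pgam1*, *Pkm* and *Taldo1* were lower without Mist1. *Aldoc*, *Aldoa*, *Pfkl*, *Gapdh*, *Ldha* and *Rpia* were higher. Of 36 members tested, 10 fell, beside 16.2% of all genes, and 6 rose, beside 13.3% of all genes. The median of the members was 0.01 on the log2 scale, as was that of all genes, to which the libraries are scaled. At the threshold of the study *Slc2a6* fell, beside 0.723% of all genes.

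*Slc2a6*, which encodes the transporter GLUT6 and is found largely on internal membranes, was at 57.3 and 48.5 TPM in control PCs and at 13.4 and 13.9 TPM in Mist1-deficient PCs. It fell by 1.92 on the log2 scale (adjusted p = 0.0013, SE 0.11), that is 3.79-fold. *Slc2a3*, a high-affinity glucose transporter, fell from 15.7 and 16.2 to 8.72 and 7.92 TPM, a log2 fold change of -0.91 (adjusted p = 0.003, SE 0.10). For both transporters the groups did not overlap. *Slc2a1* was at 29.6 and 29.9 TPM in control PCs and at 33.0 and 34.0 TPM in Mist1-deficient PCs, and this difference did not pass the test (adjusted p = 0.0889).

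*Pdk2* fell from 33.1 and 23.7 to 8.38 and 10.5 TPM, a log2 fold change of -1.55 (adjusted p = 0.0049, SE 0.20). *Pdk3* fell from 78.4 and 72.5 to 44.5 and 42.6 TPM, a log2 fold change of -0.77 (SE 0.08). *Pdk1* was at 35.9 and 34.5 TPM with Mist1 and at 29.6 and 30.96 TPM without it, and did not pass the test (adjusted p = 0.103). Hence the summed level of the pyruvate dehydrogenase kinases was 147 and 131 TPM in control PCs and 82.5 and 84.0 TPM in Mist1-deficient PCs. *Pdk4* was listed at 0 TPM in 9 libraries and at 0.0251 TPM in the other, and was not tested.

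At the entry into glycolysis, *Hk1* fell from 39.3 and 35.6 to 23.4 and 24.3 TPM, a log2 fold change of -0.63 (SE 0.09). *Hk2*, the inducible hexokinase, was at 28.0 and 30.8 TPM with Mist1 and at 34.9 and 29.6 TPM without it, so that these groups overlapped. At the phosphofructokinase step the isozymes moved apart. *Pfkp* fell from 117 and 105 to 71.3 and 78.7 TPM, and *Pfkl*, the liver type, rose from 35.4 and 37.5 to 50.8 and 50.2 TPM, a log2 fold change of 0.49 (SE 0.06). *Pfkfb4* fell from 8.26 and 7.48 to 4.98 and 4.54 TPM, while *Pfkfb1*, *Pfkfb2* and *Pfkfb3* did not pass the test, with log2 differences of 0.31, 0.05 and 0.07.

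Among the later enzymes, *Aldoc* rose from 10.6 and 8.27 to 15.7 and 15.1 TPM, a log2 fold change of 0.73 (SE 0.15). *Aldoa*, the more abundant aldolase, rose by 0.22 on the log2 scale and *Ldha* by 0.21. *Pkm* fell by 0.25 on that scale. *Pgam1*, whose level is uncertain, fell from 6.04 and 5.54 to 3.57 and 3.41 TPM, and *Gapdh*, also uncertain, rose from 12.8 and 12.8 to 15.8 and 18.9 TPM. In the pentose phosphate pathway, *Taldo1* fell from 375 and 347 to 237 and 234 TPM, a log2 fold change of -0.60 (SE 0.07). *Rpia* rose from 154 and 149.9 to 197 and 196 TPM, a log2 fold change of 0.39 (SE 0.06). The 3 oxidative enzymes and *Tkt* did not pass the test, and their log2 differences lay between -0.10 and 0.10.

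*Slc2a6*, *Slc2a3*, *Pdk2*, *Pdk3*, *Hk1* and *Taldo1* passed the test as lower, and *Pfkl* as higher, under all 6 alternative settings that differ from the main fit in this comparison. Across these settings and the omissions of a library, the log2 fold change of *Slc2a6* lay between -2.08 and -1.77. That of *Pdk2* lay between -1.82 and -1.28. Fewer members passed when a Mist1-deficient library was left out, and the share of all genes in those fits is not given here. *Pfkfb4* and *Pgam1* did not pass without control PC replicate 1 or without either Mist1-deficient library (adjusted p up to 0.111 and 0.128), and *Aldoc* did not pass without either Mist1-deficient library (up to 0.0883) or with eBayes without trend (0.0581). Of the 16 cell cycle genes of a list, 8 fell in the same comparison, beside 16.2% of all genes. The list summed to 1482 and 1594 TPM in control PCs and to 1219 and 1173 TPM in Mist1-deficient PCs. The neutrophil genes summed to 1029 and 489 TPM and to 889 and 585 TPM. The part of these in the values of the members was not tested.

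**Figure D3:**
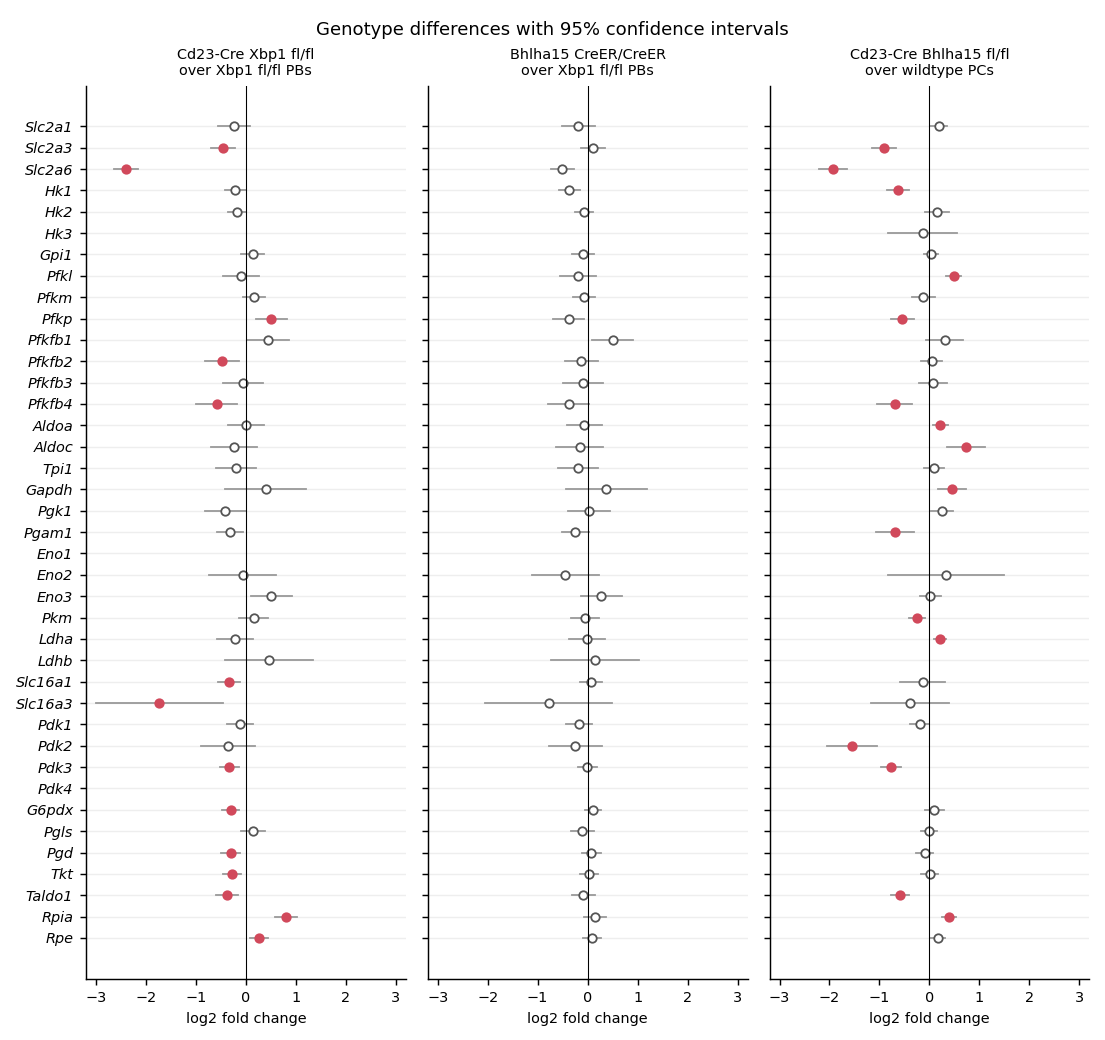
Points give the log2 fold change of each tested member for 3 genotype differences, with bars for the 95% confidence interval of the limma fit, and filled points passed an adjusted p of 0.05. *Slc2a6* is the lowest member for the loss of Xbp1 and for the loss of Mist1 in PCs, at -2.40 and -1.92, and no point is filled in the middle panel.

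Mist1 Bio-ChIP-seq, which isolates DNA bound by biotinylated Mist1, had been carried out on CD138+ cells of *Bhlha15* fl/fl *R26* BirA/BirA B cells cultured with LPS for 4 days, and not on the PCs or cultured PBs of the RNA-seq. The 2 experiments gave 29413 and 30247 peaks, from which 23806 common regions were formed. These lists are shorter than those the study describes, so that a member without a region may have one that was not analysed here. A common region lay within 1 kb of an annotated start site of 30 of the 39 members, and of 65.2% of the 10517 genes tested in PCs that have a single annotated locus. A common region lay at or within 10 kb of 34 members, beside 84.0% of these genes. The share of the members was thus 76.9% beside 65.2% at start sites and 87.2% beside 84.0% within 10 kb, and no test of these differences was made. The 5 members with no common region within 10 kb were *Slc16a3*, *Ldhb*, *Pfkfb1*, *Pdk4* and *G6pdx*.

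All 9 members that changed by more than 1.5-fold without Mist1 in PCs had a common region within 10 kb, beside the 84.0% of all genes above. The sequence CAGCTG, an E-box of the kind recognised by proteins of the family of Mist1, reads the same on both strands. It was present in 67.0% of all common regions and in the central 200 bases of 27.9% of them, whereas the 200 bases at the start of the regions contained it in 10.2%. Of the 16 regions at these 9 members, 8 contained it, and 4 had it in the central 200 bases. Neither count exceeded the share over all common regions. The sequences around those 4 are shown as examples of what lies in common regions near members that fell without Mist1. Each is read from the mm9 genome in the direction of the named member, with CAGCTG in capitals.
*Slc2a6*: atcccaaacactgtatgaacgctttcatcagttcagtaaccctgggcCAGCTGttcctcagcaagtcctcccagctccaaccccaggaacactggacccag
*Slc2a3*: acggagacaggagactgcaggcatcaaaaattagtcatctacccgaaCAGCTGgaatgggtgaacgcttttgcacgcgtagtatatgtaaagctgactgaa
*Hk1*: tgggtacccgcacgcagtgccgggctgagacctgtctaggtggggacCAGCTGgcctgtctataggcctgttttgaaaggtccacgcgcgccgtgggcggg
*Pfkfb4*: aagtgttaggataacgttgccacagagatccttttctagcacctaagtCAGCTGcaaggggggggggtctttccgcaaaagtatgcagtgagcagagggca
The *Slc2a6* sequence lies at chr2:26873527-26873627 on the minus strand, beyond the 3′ end of *Slc2a6* (chr2:26876883-26883518) and in an intron of the neighbouring gene *5930434B04Rik*. The region at the start site of *Slc2a6*, chr2:26881797-26884660, did not contain CAGCTG. The *Slc2a3* sequence, at chr6:122715096-122715196 on the minus strand, and the *Hk1* sequence, at chr10:61802384-61802484 on the minus strand, lie in introns of these genes. The *Pfkfb4* sequence lies between genes, beyond the 3′ end of *Pfkfb4*, at chr9:108940819-108940919 on the plus strand. A match of letters is not a measured binding site.

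In cultured PBs, CreER PBs were compared with control PBs, a comparison in which the control carries floxed *Xbp1* alleles and the mutant carries CreER in *Bhlha15*. No member passed the test in the limma fit among 36 tested, beside 0.322% of all genes, while 4 members had an unadjusted p under 0.05. *Slc2a6* came closest: it was at 29.8 and 33.4 TPM in control PBs and at 21.2 and 21.8 TPM in CreER PBs. These groups did not overlap, and the log2 difference was -0.51 with a 95% confidence interval from -0.74 to -0.28 (adjusted p = 0.121). *Hk1* was at 56.0 and 60.3 TPM and at 47.2 and 40.7 TPM (log2 difference -0.36, interval from -0.57 to -0.15, adjusted p = 0.205). *Pfkp* and *Pfkfb1* were the remaining members with an unadjusted p under 0.05, with log2 differences of -0.38 and 0.50. A 3-fold difference lay outside the 95% confidence interval of every tested member but *Slc16a3*, whose interval reached from -2.05 to 0.49.

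The effect of Mist1 on the members was next compared between PCs and PBs in a model of all 10 libraries, as the difference of the log2 fold changes. It was tested for 37 members, and 4 passed, all with the larger fall in PCs, beside 6.11% of all genes in either direction. *Slc2a6* differed by -1.40 (adjusted p = 0.00502, SE 0.15), *Slc2a3* by -1.01 (adjusted p = 0.00768, SE 0.13), *Pdk3* by -0.75 (adjusted p = 0.00941, SE 0.11) and *Taldo1* by -0.49 (adjusted p = 0.0392, SE 0.11). *Taldo1* no longer passed in 8 of the 10 fits that left out a library, all but those without CreER PB replicate 1 or control PC replicate 2, with adjusted p up to 0.13, and in 3 of 7 alternative settings, with adjusted p up to 0.104, whereas the other 3 genes passed in each. *Pdk2* differed by -1.29 (SE 0.33) and missed the threshold (adjusted p = 0.0526). It was at 2.81 and 2.498 TPM in CreER PBs and at 2.62 and 4.03 TPM in control PBs. The alleles of *Bhlha15*, the control genotypes and the origin of the cells differ between the 2 effects and cannot be told apart.

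The loss of Xbp1 was examined in PBs by comparing Xbp1-deficient with control PBs, the latter being the same control libraries as above. *Slc2a6* showed the largest fall and *Rpia* the largest rise among the members. Of 36 members tested, 11 fell, beside 18.0% of all genes, and 3 rose, beside 10.3% of all genes. The median log2 fold change was -0.20, beside 0.00 for all genes. At the threshold of the study *Slc2a6* and *Slc16a3* fell, beside 1.63% of all genes. The changes of the other members were at most 1.75-fold, and most depended on the scaling and on single libraries, as described below.

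*Slc2a6* fell from 29.8 and 33.4 to 6.91 and 6.73 TPM, a log2 fold change of -2.40 (adjusted p = 1.78e-06, SE 0.10), that is 5.27-fold. *Slc2a3* fell from 12.7 and 12.8 to 10.7 and 10.7 TPM (log2 fold change -0.46, adjusted p = 0.0112). *Slc2a1* was at 84.6 and 100.01 TPM with Xbp1 and at 105 and 77.6 TPM without it, and these groups overlapped. *Rpia* rose from 146 and 138 to 276 and 300.4 TPM, a log2 fold change of 0.81 (adjusted p = 0.00037, SE 0.09), and *Rpe*, the epimerase acting beside it in the non-oxidative arm, rose from 67.8 and 70.7 to 94.0 and 98.4 TPM. *Pfkp* rose from 67.3 and 73.0 to 136 and 97.9 TPM. *Tkt*, *Taldo1*, *G6pdx* and *Pgd* passed the test as lower, with log2 fold changes of -0.28, -0.38, -0.31 and -0.31.

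*Slc16a3* was at 18.5 and 21.8 TPM in control PBs and at 14.8 and 3.197 TPM in Xbp1-deficient PBs. Its log2 fold change was -1.73 (adjusted p = 0.0485, SE 0.55). It was -2.82 without replicate 1 of Xbp1-deficient PBs and -0.65 without replicate 2, and 6 of 7 alternative settings left it above an adjusted p of 0.05, up to 0.146, as did the omission of either control PB or either CreER PB library, up to 0.165. *Slc16a1*, *Pdk3*, *Pfkfb2* and *Pfkfb4* passed as lower with log2 fold changes of -0.33, -0.33, -0.48 and -0.58. For *Slc16a1* the deposited values overlapped, at 47.9 and 52.2 TPM with Xbp1 and at 49.8 and 42.3 TPM without it.

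The members with the highest levels did not pass the test. *Aldoa* was at 1195 and 1285 TPM with Xbp1 and at 1709 and 1212 TPM without it, a log2 difference of 0.01 with a 95% confidence interval from -0.35 to 0.37. *Pkm* was at 1328 and 1371 TPM and at 1925 and 1563 TPM (log2 difference 0.15, interval from -0.13 to 0.44). *Ldha* was at 758 and 856 TPM and at 961 and 668 TPM (log2 difference -0.22, interval from -0.58 to 0.15). *Tpi1* was at 741 and 826 TPM and at 975 and 642 TPM. In each of these genes, replicate 1 of Xbp1-deficient PBs was the highest of the 10 libraries.

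The 2 libraries of Xbp1-deficient PBs differed from each other in the members, with a median further from 0 than in the other pairs. Relative to the median gene, replicate 2 was lower than replicate 1 in 27 of the 30 members at 5 TPM or more in both, with a median log2 ratio of -0.22, and 11 of them lay below -0.3, beside 3.501% of all genes at this level. The corresponding median was 0.08 in control PBs, -0.05 in CreER PBs, -0.08 in control PCs and 0.01 in Mist1-deficient PCs. The log2 ratio was -0.76 for *Aldoc*, -0.64 for *Pgk1*, -0.62 for *Tpi1*, -0.54 for *Ldha* and -0.51 for *Aldoa*. It lay between -0.09 and 0.11 for *G6pdx*, *Pgd*, *Tkt*, *Taldo1*, *Rpia* and *Rpe* of the pentose phosphate pathway and was -0.20 for *Pgls*. Other lists with at least 7 genes at this level were counted on the TPM as deposited, not relative to the median gene. Of 13 non-glycolytic targets of the hypoxia-inducible factors, 11 were lower in replicate 2, *Bnip3* at 62.2 and 31.5 TPM among them. So were 7 of 7 fibroblast genes, 14 of 16 cell cycle genes and 5 of 7 B cell genes. Lower in replicate 2 were also 4 of 9 plasma cell genes and 8 of 17 regulators of these pathways. The count was 12 of 25 for further genes of neighbouring metabolism and 1 of 7 for Nrf2 targets. No share over all genes is given for these counts. The fibroblast genes summed to 1846 and 1696 TPM in these libraries, and the part of these lists in the difference was not tested.

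**Figure D4:**
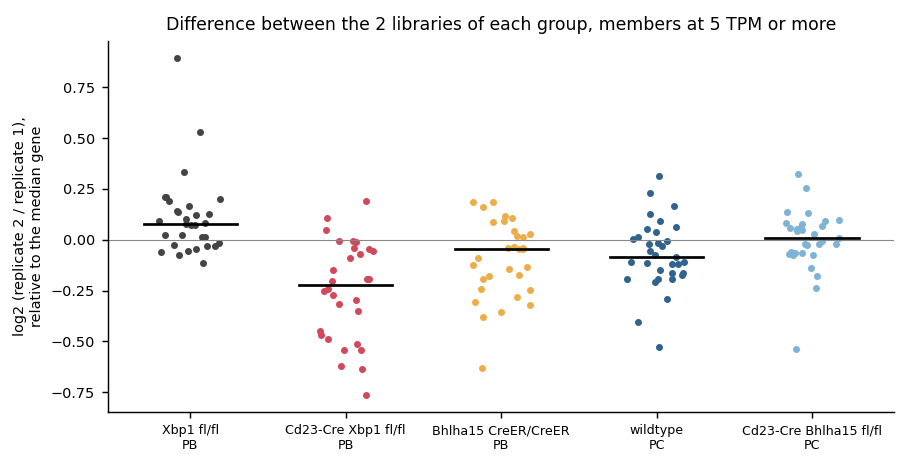
Each point is a member at 5 TPM or more in both libraries of a group, placed at the log2 ratio of replicate 2 over replicate 1 relative to the median gene, with a line at the median of the points, and the sideways spread has no meaning. The median is -0.22 in Xbp1-deficient PBs and between -0.08 and 0.08 in the other groups.

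The counts in this comparison depended on these libraries and on the scale. The share of all genes under these other settings is not given here. The counts therefore show how far the calls of the members move, and not how they compare with other genes. Without replicate 2 of Xbp1-deficient PBs 2 members fell and 2 rose, and without replicate 1 of this group 9 fell and 1 rose. Leaving out replicate 1 of control PBs left 1 fall and 1 rise, and leaving out replicate 2 left 1 fall and 2 rises. On the TPM as deposited, where the median of all genes shifted by 0.21 on the log2 scale, 2 members fell and 7 rose, and the median of the members was 0.01. *Slc2a6* as lower and *Rpia* as higher passed the test under all 13 alternative settings and omissions.

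Xbp1-deficient and CreER PBs were also compared directly, since both had little *Bhlha15* transcript. *Slc2a6* was at 6.91 and 6.73 TPM in the former and at 21.2 and 21.8 TPM in the latter, a log2 difference of -1.89 (adjusted p = 5.41e-06, SE 0.10). *Rpia* was higher in Xbp1-deficient PBs, at 276 and 300.4 TPM against 151 and 154 TPM, as was *Pfkp*, at 136 and 97.9 TPM against 56.4 and 48.5 TPM. These were the 2 members that rose, beside 9.34% of all genes. *Slc2a6*, *Slc2a3*, *Slc16a1*, *G6pdx*, *Pgd*, *Pdk3* and *Tkt* were the 7 that fell, beside 17.8% of all genes. On the TPM as deposited 8 rose and 1 fell, *Slc2a6*, and the share of all genes under other settings is not given here. Without replicate 2 of Xbp1-deficient PBs 3 fell, and without replicate 2 of CreER PBs 4 rose. In TPM, *Slc2a6* ranked from control PCs through control PBs, CreER PBs and Mist1-deficient PCs to Xbp1-deficient PBs, with no overlap of libraries between neighbours.

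The share of each isozyme in the summed TPM of its family gave a measure that does not depend on the scaling of libraries. It is a description of 2 libraries per group, and no test was applied to the shares. *Slc2a6* supplied 55.8% and 51.2% of the transcripts of the 3 glucose transporters in control PCs, 24.3% and 24.9% in Mist1-deficient PCs, 23.5% and 22.8% in control PBs, and 5.65% and 7.08% in Xbp1-deficient PBs. *Slc2a1* made up most of the rest, with 28.8% and 31.7% in control PCs and 59.8% and 60.9% in Mist1-deficient PCs. Thus the leading transporter transcript was *Slc2a6* in control PCs and *Slc2a1* in every other group.

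*Pfkl* was the main phosphofructokinase transcript of control PBs, with 53.7% and 54.5%, and *Pfkp* was that of control PCs, with 69.0% and 65.4%. Without Mist1 the share of *Pfkp* in PCs was 51.4% and 54.8%. *Hk1* made up 56.1% and 51.8% of the hexokinases in control PCs and 38.4% and 43.6% in Mist1-deficient PCs, where *Hk2* made up 57.2% and 53.1%. *Pdk2* supplied 22.4% and 18.1% of the pyruvate dehydrogenase kinases in control PCs, 10.2% and 12.5% in Mist1-deficient PCs and between 1.41% and 2.10% in the PB libraries. *Pdk3* made up at least 50.6% of this family in every library. *Pfkfb4* made up 18.3% and 14.6% of the PFKFB enzymes in control PCs and 10.7% and 9.53% without Mist1. *Aldoa* and *Ldha* made up at least 95.2% and 98.9% of their families in every library. *Eno3* rather than *Eno2* was the main listed enolase in PCs, with at least 94.3%, but the shares of enolases leave out *Eno1* because it was listed at 0 TPM.

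**Figure D5:**
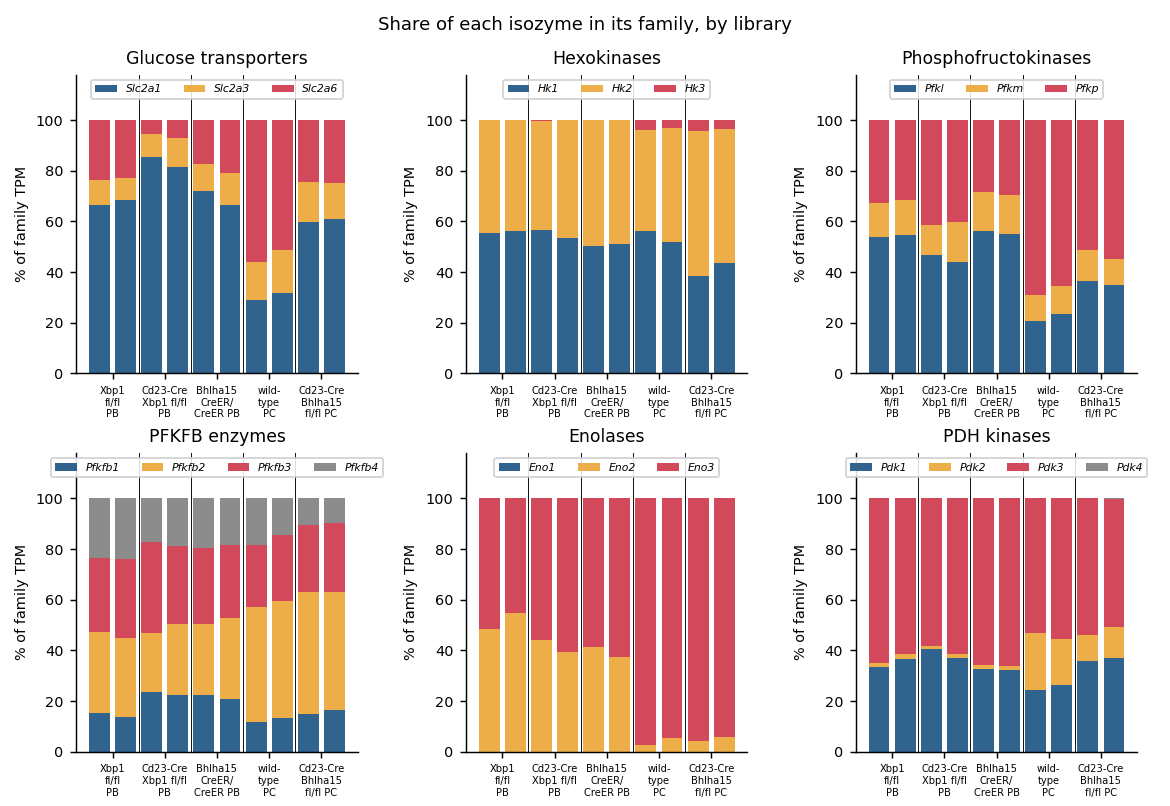
Stacked bars give the percent of the summed TPM of a family in each of the 10 libraries, in pairs by group. *Slc2a6* takes 55.8% and 51.2% of the glucose transporter bar in control PCs and 5.65% and 7.08% in Xbp1-deficient PBs.

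Neighbouring metabolism was examined in a list of 46 further genes of hexose, pyruvate and pentose phosphate metabolism. Upon loss of Mist1 in PCs, 4 of 33 tested genes fell, beside 16.2% of all genes, and 7 rose, beside 13.3% of all genes. The median log2 fold change of the list was 0.04. *Pgam2*, the muscle isozyme of phosphoglycerate mutase, fell from 148 and 93.7 to 34.0 and 30.2 TPM. *Pgm1*, a gene of the phosphoglucomutase family, fell from 42.0 and 42.5 to 20.3 and 20.7 TPM. *G6pc3*, a glucose-6-phosphatase of the endoplasmic reticulum, rose from 30.8 and 33.6 to 59.1 and 61.2 TPM, and *Shpk*, a kinase of the pathway intermediate sedoheptulose, rose from 9.14 and 11.01 to 16.4 and 14.9 TPM.

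Upon loss of Xbp1 in PBs, 10 of 31 tested genes of this list fell, beside 18.0% of all genes. A rise was seen in 4, beside 10.3% of all genes, and the median was -0.05. *H6pd*, which runs the oxidative steps in the lumen of the endoplasmic reticulum, fell from 23.8 and 22.4 to 11.3 and 9.21 TPM. *Mpc2*, a subunit of the mitochondrial pyruvate carrier, fell from 157 and 133 to 83.0 and 83.9 TPM. *Shpk* fell from 8.62 and 8.54 to 4.88 and 5.70 TPM. *Pck2*, the mitochondrial enzyme that makes phosphoenolpyruvate, rose from 112 and 107 to 269.6 and 271 TPM.

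Of 21 regulators of these pathways, 5 of 18 tested fell upon loss of Xbp1 in PBs, beside 18.0% of all genes. Upon loss of Mist1 in PCs 4 of 17 fell, beside 16.2% of all genes, and 2 rose, beside 13.3%. *Myc*, an activator of glycolytic genes, fell from 126 and 123 to 69.3 and 69.4 TPM without Xbp1, and from 64.5 and 65.4 to 36.6 and 38.9 TPM without Mist1 in PCs. *Rrad*, a small GTPase reported to restrain glucose uptake, fell from 47.5 and 40.1 to 18.5 and 18.9 TPM without Xbp1, and from 109.6 and 79.2 to 30.2 and 30.5 TPM without Mist1 in PCs. *Mlx* and *Keap1* fell by 0.83 and 0.53 on the log2 scale without Xbp1. *Esrra* and *Nfe2l2*, which encodes Nrf2, rose by 0.46 and 0.34 on that scale without Mist1 in PCs.

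Among the 15 targets of the hypoxia-inducible factors that are not glycolytic, 2 rose and 1 fell without Xbp1. Of all genes, 10.3% rose and 18.0% fell. *Vegfa*, an angiogenic growth factor, rose from 86.6 and 91.8 to 312 and 386 TPM, *Ddit4*, an inhibitor of mTORC1, rose from 72.7 and 85.7 to 143 and 129 TPM, and *Cited2* fell by 0.40 on the log2 scale. Without Mist1 in PCs 4 of 13 tested fell, beside 16.2% of all genes, and 2 rose, beside 13.3%. *Ddit4* fell from 100.1 and 89.4 to 38.9 and 33.7 TPM in this comparison. Of 7 tested Nrf2 targets outside the pentose phosphate pathway, 4 rose without Xbp1, beside 10.3% of all genes. Among them were *Hmox1*, from 46.4 and 51.5 to 135 and 151 TPM, and *Nqo1*, from 23.0 and 25.7 to 41.7 and 48.0 TPM. *G6pdx*, *Pgd*, *Tkt* and *Taldo1*, which are also known Nrf2 targets, were the members given above as lower, of which *Taldo1* also passed on the TPM as deposited.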

How the data were processed

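RNA-seq values and peak lists were used as deposited. Per the submitters' notes and the study's methods, the authors trimmed reads with cutadapt, aligned them to mm9 with STAR 2.4.2, counted them per gene with featureCounts 1.5 and converted them to TPM, leaving out immunoglobulin and T cell receptor genes. TPM keep no read number, so that depth is unknown. The authors aligned ChIP-seq reads with Bowtie 1.0.0 and called peaks with MACS, and the deposited lists hold positions.

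Libraries were scaled by the median ratio to the geometric mean. Genes that reached 1 TPM in 2 or more libraries entered a limma fit on log2(scaled TPM + 0.1) (limma 3.58.1, R 4.3.3, trended eBayes), in a model of the 6 PB libraries, of the 4 PC libraries and, for stage and for the difference of Mist1 effects, of all 10. Fold changes are on this scale, which understates those of low genes. p-values were adjusted by Benjamini-Hochberg across every tested gene. The limma fit was also run on simulated data, drawn independently for each gene. Such data hold no shift shared by many genes of a library, so that run does not cover one. With 2 libraries against 2 an exact test cannot go below p = 0.333. *Hk3*, *Eno1* and *Pdk4* were not tested in PBs, *Ldhb*, *Eno1* and *Pdk4* not in PCs, and *Eno1* and *Pdk4* not in the model of all 10.

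Common Mist1 regions are peaks of both experiments that share a base, merged, and placed with GENCODE M1 on NCBIM37, the assembly of mm9. Sequences were read from this assembly. All members were accounted for, with values in every library for those past an adjusted p of 0.05 and 1.5-fold in a genotype comparison and for the families with shares. Of other lists, at most 4 genes a comparison are named, those with the largest log2 fold change past an adjusted p of 0.05 with over 5 TPM. The members, lists and tests were chosen with earlier results of these data known.

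Alternatives were the TPM as deposited, quantile normalization, other pseudocounts, no filter, eBayes without trend, a model of only the libraries compared, other peak overlaps, and the omission of each library.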

Additional observations from a re-analysis of the deposited data

Results flagged for a closer look

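For *Slc2a6*, *Slc2a3* and *Pdk3* the effect of Mist1 differed between PCs and PBs, by -1.40, -1.01 and -0.75 on the log2 scale, in a test of the difference itself. *Taldo1*, at -0.49, passed the same test but lost its call in 8 of 10 omissions of a library and under 3 of 7 alternative settings: no filter on low values, eBayes without trend and the model of only the libraries compared. *Slc2a6* fell by 1.92 on the log2 scale in PCs, and its log2 difference in PBs was -0.51. *Slc2a3* fell by 0.91 in PCs, with a log2 difference of 0.11 in PBs. *Pdk3* fell by 0.77 in PCs, with a log2 difference of -0.01 in PBs. *Taldo1* fell by 0.60 in PCs, with a log2 difference of -0.09 in PBs.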

How the results depend on the processing

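Results rest on 2 libraries per group and on TPM without a known depth, so that the precision of low genes cannot be stated. Of 275 recomputed counts and medians, 237 stayed within 1.5 times the count or within the spread between replicates. The 237 include the counts of members called in CreER PBs, which were 0 under every setting. Of 236 recomputed values of named genes, 206 kept the call, 30 lost it and 0 reversed. The share of all genes called is given for the main fit only, so the recomputed counts of members have none beside them. No paired analysis was possible because the labels give no replicate numbers shared between groups.

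For the loss of Xbp1, members higher and lower were 7 and 2 on the TPM as deposited (median 0.0075), 7 higher with quantile normalization (median -0.0589), 1 and 7 with no filter on low values, and 1 and 5 for eBayes without trend. Leaving out a library gave 1 to 4 higher, 1 to 11 lower and medians from -0.33 to 0.0512. Against CreER PBs they were 8 and 1 on the TPM as deposited (median 0.19), 7 and 4 with quantile normalization, and 4 lower for eBayes without trend. Leaving out a library gave 2 to 4 higher, 3 to 10 lower and medians from -0.18 to 0.14. The TPM as deposited moved the median of all genes by 0.21 and 0.26 in these comparisons.

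For the loss of Mist1 in PCs, 2 members were higher for eBayes without trend, and leaving out a library gave 1 to 6 higher, 6 to 11 lower and medians from -0.0636 to 0.0285. For control PCs against control PBs the median was -0.65 on the TPM as deposited, and between -0.84 and -0.74 with a library left out. For the difference of Mist1 effects 1 member was higher with quantile normalization and 2 in the model of only the libraries compared. Leaving out a library gave 0 to 2 higher and medians from -0.0315 to 0.0824. In a setting added after seeing the data, without the 4 members for which over 70% of the 50-base stretches recur elsewhere, the counts stayed within 1.5 times. The cause of these changes was not tested.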
